A study of Mus musculus with 6 samples.

Results

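The genes described here are 9 Toll-like receptors of the mouse, Tlr1, Tlr2, Tlr3, Tlr4, Tlr6, Tlr7, Tlr8, Tlr9 and Tlr13, together with Myd88, the adaptor that most of them share. They were taken by name, 10 of the 32371 genes in a table of read counts, by a rule that uses no measured value, although earlier results of these data were known when they were chosen. The table holds 6 RNA-Seq libraries of retinal cells from adult C57BL/6J mice, 3 from mice given AAV2-GFP and 3 from mice given AAV2-Ezh2-Y726D, a virus that carries a catalytically dead form of the histone methyltransferase Ezh2. All mice received the virus in the vitreous, had the optic nerve crushed (ONC) 2 weeks later and were sampled 3 days after that, so that the GFP group shares the virus and the injury. Dissociated cells went through FACS on CD90.2, which Thy1 encodes and which retinal ganglion cells (RGCs) and T cells are known to carry, after a block of Fc receptors with an antibody to CD16/CD32. The virus is not restricted to RGCs, and the labels do not say whether a library pools several mice, so the P values given here measure the spread between these libraries.

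Toll-like receptors recognize microbial lipids, proteins and nucleic acids, and some products of damaged cells. Tlr1, Tlr2, Tlr4 and Tlr6 work at the cell surface, whereas Tlr3, Tlr7, Tlr8, Tlr9 and Tlr13 sense nucleic acids in endosomes, where the chaperone Unc93b1 takes them. Myd88 links every one of these receptors except Tlr3, which signals through Ticam1, to the Irak kinases and to NF-kB, and in neural tissue microglia and infiltrating myeloid cells are the best known carriers of the family.

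Total counts ran from 9333244 to 23782520 per library, and a single rRNA gene, CT010467.1, took 50.9% and 52.2% of them in GFP replicates 2 and 3 and between 2.55% and 16.1% in the other 4 libraries. The 10 genes together had between 826 and 3640 counts per library, and the lowest count of any of them in any library was 13. Ezh2, whose counts include any reads of the delivered Ezh2-Y726D, was at 22.7, 23.9 and 26.4 CPM (edgeR's count relative to the library's total after TMM scaling) in GFP replicates 1, 2 and 3 and at 65.2, 65.6 and 65.2 CPM in Ezh2-Y726D replicates 1, 2 and 3. Its log2 fold change was 1.46 with a standard error of 0.0614 (adjusted P = 3.01e-16, quasi-likelihood test of edgeR, adjusted after Benjamini and Hochberg). The sum of 9 RGC markers was between 441 and 454 CPM in GFP and between 432 and 469.6 CPM in Ezh2-Y726D libraries, and 2 of the 9 were called higher by edgeR, Pou4f1 (log2 fold change 0.41, adjusted P = 0.00151) and Thy1 itself (0.13, adjusted P = 0.0315). RNA of other retinal cells was present in all libraries. Of the other neuron lists, all 4 amacrine cell markers were called higher, with a sum between 515 and 589 CPM in GFP and between 887 and 919.8 CPM in Ezh2-Y726D libraries. All 4 bipolar cell markers were called lower, with a sum between 688 and 709.7 CPM in GFP and between 520.2 and 536 CPM in Ezh2-Y726D libraries. Of 5 Müller glia markers 2 were called lower, Apoe (log2 fold change -0.64) and Slc1a3 (-0.14). Rlbp1 (-0.06), Glul (-0.09) and Aqp4 (-0.04) were not called. Their sum was between 7636 and 7988 CPM in GFP and between 6303 and 6490.2 CPM in Ezh2-Y726D libraries. Most of that difference was in Apoe, with a mean of 3099 CPM in GFP and 1983 CPM in Ezh2-Y726D. Of 5 endothelial markers 2 were called lower, Pecam1 (log2 fold change -0.33) and Kdr (-0.13). Cdh5 (-0.34), Cldn5 (0.04) and Tek (0.33) were not called. Their sum was between 759.7 and 803 CPM in GFP and between 690.0 and 741 CPM in Ezh2-Y726D libraries. Kdr made up most of it, with a mean of 763 CPM in GFP and 696 CPM in Ezh2-Y726D. The part of these cells in the levels of the receptors was not tested. Of 6 neutrophil markers 5 were at 3 counts or fewer in every library, and Csf3r, the other one, was lower in Ezh2-Y726D (mean 19.2 CPM in GFP and 11.8 CPM in Ezh2-Y726D, log2 fold change -0.68, adjusted P = 2.83e-07, edgeR).

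All 10 genes were lower in Ezh2-Y726D than in GFP libraries, with log2 fold changes from -2.03 for Tlr8 to -0.22 for Tlr3 and a median of -0.79, compared with a median of 0.00 over all 18138 genes tested. All 10 passed an adjusted P under 0.05 in edgeR's quasi-likelihood test, where 13.6% of all genes tested were called lower and 13.9% higher. Of the 10, 8 also had a fold change over 1.5 and count as differentially expressed genes (DEGs), compared with 5.50% of all genes tested that were DEGs on the lower side, and Tlr3 and Myd88 did not reach this fold. Each of the 10 was lower in every Ezh2-Y726D library than in every GFP library, as were 18.9% of all genes tested. In bulk RNA of sorted cells, fewer cells of a type and less RNA per cell cannot be told apart.

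These directions refer to the TMM scaling. When libraries were scaled by their raw totals, which include the rRNA gene, the median of all genes moved to 0.49, Tlr3 was at 0.27 (adjusted P = 0.591, edgeR) and Myd88 at 0.21 (adjusted P = 0.682), both above 0, and none of the 10 genes passed edgeR's test (1 did at an unadjusted P under 0.05, and 8 were called lower by DESeq2 with its own size factors, which called 9.52% of all genes lower and 10.4% higher). With these totals 0.105% of all genes were called lower and 0.254% higher. All 10 genes still lay below the median of all genes, and with totals that leave out CT010467.1 all 10 were again lower and 8 were DEGs.

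**Figure D1:**
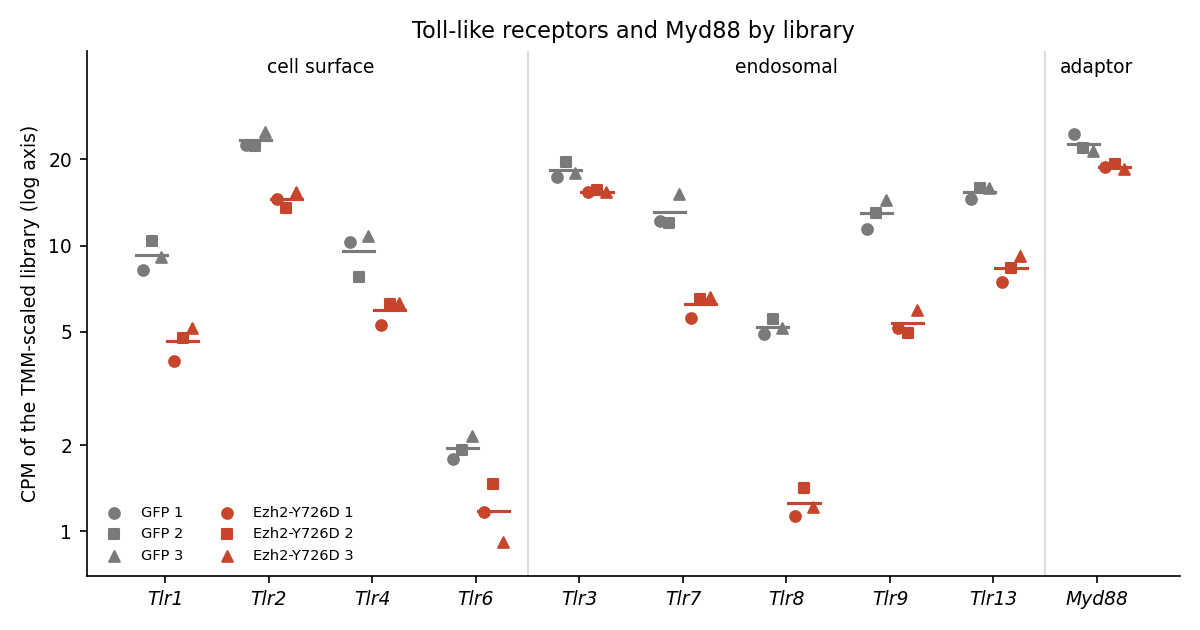
Level of each gene by library, in CPM of the TMM-scaled library on a log axis, with symbols for the 3 GFP (grey) and 3 Ezh2-Y726D (red) libraries and a bar at the mean of each group. At this scaling every Ezh2-Y726D library lies below every GFP library for each of the 10 genes, whereas with raw library totals, where the median of all genes was 0.49, Tlr3 (0.27) and Myd88 (0.21) were above 0 without passing the test.

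Among the receptors of the cell surface, Tlr2, which pairs with Tlr1 or Tlr6 to bind bacterial lipopeptides, was the most abundant per exonic length. Tlr2 (chromosome 3, 83836272 to 83841767, minus strand, GRCm38) was at 22.5, 22.3 and 25 CPM in GFP replicates 1, 2 and 3 and at 14.5, 13.5 and 15.4 CPM in Ezh2-Y726D replicates 1, 2 and 3. The lowest GFP library stood well above the highest Ezh2-Y726D library, with means of 23.3 ± 1.52 CPM in GFP and 14.5 ± 0.973 CPM in Ezh2-Y726D (SD, n = 3 each). The log2 fold change of Tlr2 was -0.66 with a standard error of 0.0781 (adjusted P = 1.30e-07, edgeR), a level 1.58-fold lower. With each library left out in turn it stayed between -0.71 and -0.62, the narrowest range of the 10 genes.

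Tlr1, the partner of Tlr2 for triacylated lipopeptides, had a larger log2 fold change than Tlr2. Its level was 8.21, 10.4 and 9.12 CPM in GFP and 3.95, 4.75 and 5.15 CPM in Ezh2-Y726D libraries, in the order of their replicate numbers here and in what follows. The groups were far from overlapping, with means of 9.26 ± 1.13 and 4.62 ± 0.614 CPM, and the log2 fold change was -0.95 with a standard error of 0.133 (adjusted P = 2.14e-06, edgeR). Tlr6, the partner for diacylated lipopeptides, had the fewest counts of the 10 genes, with 51, 15 and 13 counts in GFP and 31, 30 and 27 counts in Ezh2-Y726D libraries. In CPM these were 1.79, 1.93 and 2.16 against 1.17, 1.47 and 0.915. The groups did not overlap, but the gap between GFP replicate 1 and Ezh2-Y726D replicate 2 was small.

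The log2 fold change of Tlr6 was -0.70, a size close to that of Tlr2, with the widest standard error of the 10 genes, 0.257 (adjusted P = 0.0421, edgeR). It was called in 1 of the 6 fits with a library left out, the fit without Ezh2-Y726D replicate 2 (-0.86, adjusted P = 0.0277). The adjusted P of edgeR's test was 0.111, 0.0818 and 0.0902 without GFP replicates 1, 2 and 3, and 0.0771 and 0.199 without Ezh2-Y726D replicates 1 and 3, with log2 fold changes between -0.81 and -0.53. DESeq2 gave -0.71 with an adjusted P of 0.209, and edgeR with a block for the replicate number gave -0.70 with an adjusted P of 0.0553. Tlr1 (chromosome 5, 64924679 to 64933563) and Tlr6 (chromosome 5, 64952031 to 64960097) are neighbours on the minus strand with 18467 bases and no other gene between them, and 15.4% of the 50-base stretches of Tlr1 transcripts and 12.3% of those of Tlr6 also occur in another gene, mostly in each other. The counting rule for such reads is not given in the sources used here, so the split of reads between these neighbours is uncertain.

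Tlr4, the receptor of lipopolysaccharide, was lower as well. Tlr4 (chromosome 4, 66827584 to 66930284, plus strand) was at 10.3, 7.74 and 10.8 CPM in GFP and at 5.26, 6.22 and 6.30 CPM in Ezh2-Y726D libraries. GFP replicate 2 stood below the other GFP libraries, nearer to the Ezh2-Y726D group, which makes Tlr4 the gene with the largest spread within GFP relative to its level. The log2 fold change was -0.72 with a standard error of 0.123 (adjusted P = 3.37e-05, edgeR), and it was called in all 6 fits with a library left out. With the counts of each library thinned to the depth of the shallowest, the log2 fold change of Tlr4 was -0.45 and was no longer called (adjusted P = 0.0636, edgeR).

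Among the endosomal receptors, the decreases spread over a wider range than at the surface, from the deepest of all 10 genes, Tlr8, to the shallowest, Tlr3. Tlr8, a sensor of single-stranded RNA and its breakdown products, was at 4.91, 5.55 and 5.14 CPM in GFP libraries and at 1.13, 1.42 and 1.22 CPM in Ezh2-Y726D libraries. The counts behind these levels were 140, 43 and 31 in GFP and 30, 29 and 36 in Ezh2-Y726D libraries. The lowest GFP library thus stood more than 3-fold above the highest Ezh2-Y726D library, and the spread within each group was narrow (5.20 ± 0.322 and 1.26 ± 0.150 CPM, SD, n = 3 each). The log2 fold change was -2.03 with a standard error of 0.188, a level 4.09-fold lower (adjusted P = 1.51e-09, edgeR), and it stayed between -2.12 and -1.96 with each library left out.

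Tlr7, the other receptor of single-stranded RNA, lies next to Tlr8 on the X chromosome (Tlr7 from 167304929 to 167330558 and Tlr8 from 167242696 to 167264329, both on the minus strand, 40599 bases apart with no gene between them). It was at 12.2, 12 and 15.1 CPM in GFP and at 5.56, 6.52 and 6.58 CPM in Ezh2-Y726D libraries. The groups stood wide apart, and GFP replicate 3 was the highest library. The log2 fold change of Tlr7 was -1.03 with a standard error of 0.112 (adjusted P = 2.68e-08, edgeR). The ratio of Tlr8 to Tlr7 counts was 0.403, 0.462 and 0.341 in GFP and 0.203, 0.218 and 0.186 in Ezh2-Y726D libraries, lower in every Ezh2-Y726D library (exact 2-sided permutation test of 3 against 3 libraries, p = 0.1, the smallest it can give).

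Tlr9, the receptor of unmethylated CpG DNA (chromosome 9, 106222598 to 106226883, plus strand), had the second-largest decrease. Its levels were 11.4, 13 and 14.4 CPM in GFP and 5.15, 4.95 and 5.93 CPM in Ezh2-Y726D libraries. Every GFP library was near or above 2 times the level of any Ezh2-Y726D library, and the log2 fold change was -1.20 with a standard error of 0.116 (adjusted P = 3.33e-09, edgeR). Tlr13, a mouse receptor for a stretch of bacterial ribosomal RNA (chromosome X, 106143204 to 106160493, plus strand), was at 14.6, 15.9 and 15.9 CPM in GFP and at 7.48, 8.33 and 9.18 CPM in Ezh2-Y726D libraries. Its GFP libraries were the most alike among the 10 genes, and its log2 fold change was -0.86 with a standard error of 0.0991 (adjusted P = 8.21e-08, edgeR).

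Because Tlr7, Tlr8 and Tlr13 are X-linked, the sex-linked genes were read beside them. Xist, the RNA of the inactive X chromosome, had between 0 and 3 counts in every library, and the sum of 4 Y-linked genes and Xist was between 187 and 195 CPM in GFP and between 198 and 209 CPM in Ezh2-Y726D libraries. Both groups thus held Y-linked RNA and at most a trace of Xist.

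Tlr3, the receptor of double-stranded RNA (chromosome 8, 45395665 to 45411080, minus strand), changed the least. It was at 17.4, 19.6 and 17.9 CPM in GFP and at 15.4, 15.6 and 15.4 CPM in Ezh2-Y726D libraries. The groups did not overlap, the Ezh2-Y726D libraries were nearly equal, and the log2 fold change was -0.22 with a standard error of 0.0788, a level 1.17-fold lower (adjusted P = 0.0360, edgeR). This call rested on every library being present except GFP replicate 1, without which it was kept at -0.29 (adjusted P = 0.0489). The adjusted P of edgeR's test was 0.129 and 0.0555 without GFP replicates 2 and 3, and 0.0641, 0.0672 and 0.0925 without Ezh2-Y726D replicates 1, 2 and 3, with log2 fold changes between -0.23 and -0.18. DESeq2 gave -0.23 with an adjusted P of 0.180. An antisense gene, Gm45542, overlaps 7.32% of the exonic bases of Tlr3, and as the sources used here do not say whether counting used the strand, reads of the overlap cannot be told apart.

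Myd88 (chromosome 9, 119335934 to 119341411, minus strand) was at 24.5, 21.9 and 21.4 CPM in GFP and at 18.8, 19.3 and 18.5 CPM in Ezh2-Y726D libraries. The groups did not overlap, though GFP replicates 2 and 3 stood close to the Ezh2-Y726D libraries. Its mean fell from 22.6 ± 1.63 to 18.8 ± 0.385 CPM, with a log2 fold change of -0.30 and a standard error of 0.0726, a level 1.24-fold lower (adjusted P = 0.00176, edgeR). Leaving out GFP replicate 1 gave Myd88 a log2 fold change of -0.21 that was not called (adjusted P = 0.143), and with thinned counts it was -0.24 (adjusted P = 0.119). Acaa1a on the opposite strand overlaps 11.3% of the exonic bases of Myd88.

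**Figure D2:**
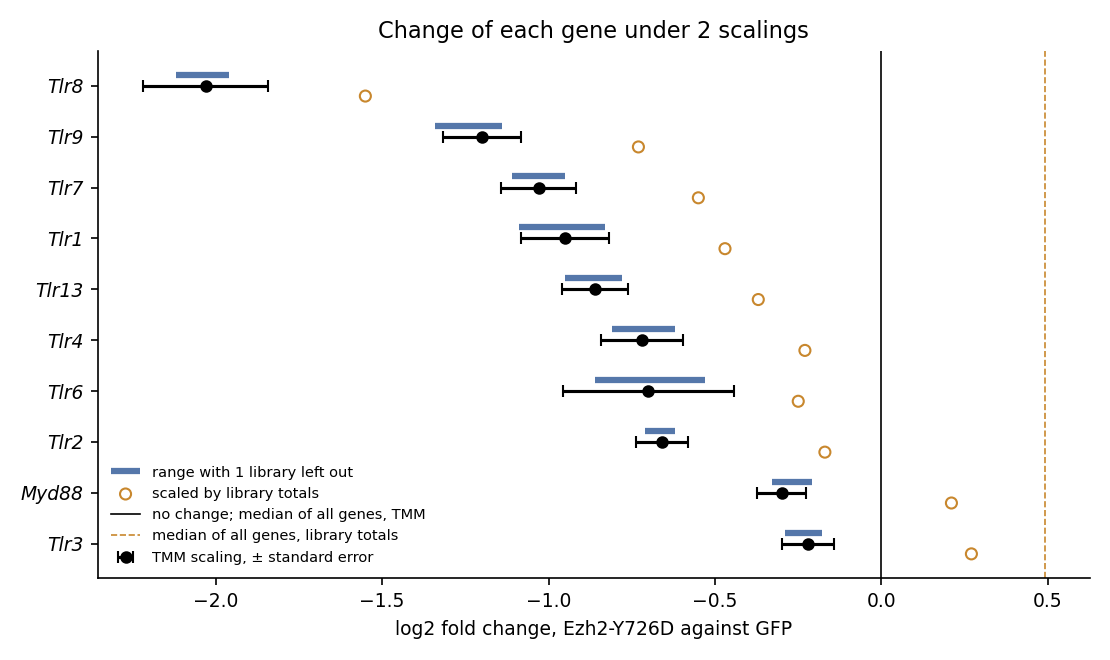
Log2 fold change of each gene, Ezh2-Y726D against GFP, with TMM scaling (black, ± standard error), its range with each library left out (blue bars) and with raw library totals (open circles). Tlr8 is farthest to the left under both scalings, and with library totals Tlr3 (0.27) and Myd88 (0.21) lie right of 0 but left of the median of all genes at 0.49 (dashed line).

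The sequence around the start site is shown for the genes at both ends of this range, Tlr8 and Tlr9 with the largest decreases and Tlr3 and Myd88 with the smallest. The windows are RefSeq promoter windows on GRCm38.p6, from 250 bases before to 50 bases after a start site, given 5′ to 3′ on the strand of the gene. RefSeq windows were matched for 8 of the 10 genes (10 windows in all), and none was matched for Tlr4 and Tlr7. The windows shown lie, in the order of the sequences, at chrX:167264280-167264579 (minus strand), chr9:106222348-106222647 (plus strand), chr8:45410331-45410630 (minus strand) and chr9:119339969-119340268 (minus strand). Those of Tlr3 and Myd88 lie wholly inside the gene bounds given above, so their start site is not the outermost one of the gene. Capitals mark matches on either strand to 3 motifs, the ETS/PU.1-type element GAGGAA, an interferon response element (GAAA, any 2 bases, GAAA) and the NF-kB element (GGGA, any base, TTTCC).
Tlr8: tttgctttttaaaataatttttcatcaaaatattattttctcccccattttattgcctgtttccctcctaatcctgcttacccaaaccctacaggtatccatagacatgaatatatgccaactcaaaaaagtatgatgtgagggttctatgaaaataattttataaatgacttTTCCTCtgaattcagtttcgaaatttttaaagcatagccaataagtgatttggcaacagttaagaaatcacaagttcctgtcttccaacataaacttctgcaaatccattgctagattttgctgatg
Tlr9: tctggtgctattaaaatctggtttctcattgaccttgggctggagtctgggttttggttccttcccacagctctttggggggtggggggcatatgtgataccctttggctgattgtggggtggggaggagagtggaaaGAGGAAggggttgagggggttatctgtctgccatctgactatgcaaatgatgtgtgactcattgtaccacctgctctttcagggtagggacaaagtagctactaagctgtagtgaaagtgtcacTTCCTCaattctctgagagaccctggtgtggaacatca
Tlr3: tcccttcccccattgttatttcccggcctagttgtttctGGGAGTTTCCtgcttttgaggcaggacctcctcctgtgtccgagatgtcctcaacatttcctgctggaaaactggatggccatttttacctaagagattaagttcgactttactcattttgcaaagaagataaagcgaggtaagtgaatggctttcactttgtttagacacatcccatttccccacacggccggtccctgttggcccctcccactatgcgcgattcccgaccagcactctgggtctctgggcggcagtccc
Myd88: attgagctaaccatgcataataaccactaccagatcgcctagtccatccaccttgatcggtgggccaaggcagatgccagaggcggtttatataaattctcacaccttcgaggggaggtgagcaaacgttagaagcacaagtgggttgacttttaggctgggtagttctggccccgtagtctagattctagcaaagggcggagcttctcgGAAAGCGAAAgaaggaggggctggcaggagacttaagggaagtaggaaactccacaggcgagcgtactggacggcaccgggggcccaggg

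The capitals in Tlr8 and Tlr9 are ETS/PU.1-type matches, at 77 bases before the start site of Tlr8 and at 112 bases before and 12 bases after that of Tlr9. This motif was found in 4 of the 10 windows (Tlr1, Tlr8, Tlr9 and Tlr13) and in 28.3% of all 32851 RefSeq windows of the same 300 bases. The Tlr3 window holds an NF-kB match 211 bases before the start site, 1 of the 10 windows compared with 0.411% of all. The Myd88 window holds an interferon response match 40 bases before the start site, and the Tlr6 window that begins at 64959117 holds a pair of overlapping matches of the same kind. Windows with this motif were 2 of 10, and 3.44% of all. No matches of different motifs overlapped in these windows. The matches describe these letters, and binding was not measured in the data used here.

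Levels of different genes were compared in CPM per kb of exonic length. In GFP libraries Myd88 (8.77 ± 0.634 CPM per kb) and Tlr2 (7.73 ± 0.504) stood at the top, with overlapping libraries. A middle group followed with Tlr9 (3.73), Tlr13 (3.59), Tlr3 (3.51), Tlr7 (3.21) and Tlr1 (2.77), in which each gene overlapped its neighbour in the order. Tlr4 (1.73) and Tlr8 (1.45) overlapped each other below Tlr1, and Tlr6 (0.526 ± 0.0496 CPM per kb) was separate at the bottom.

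The order was different in Ezh2-Y726D libraries in the middle of the list. Myd88 (7.31 ± 0.149 CPM per kb) was separate from Tlr2 (4.80 ± 0.323), Tlr3 (2.97 ± 0.0232) had moved from rank 5 to rank 3, and Tlr9 (1.54 ± 0.149) from rank 3 to rank 5. Tlr13 (1.94) lay between them. Tlr9, Tlr7 (1.52) and Tlr1 (1.38) overlapped as neighbours, Tlr4 (1.07) was separate, and Tlr8 (0.350) had come down to the level of Tlr6 (0.318), with overlapping libraries.

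Summed over the 9 receptors, the level was 103, 108 and 116 CPM in GFP and 59.6, 62.7 and 66.1 CPM in Ezh2-Y726D libraries. The log2 ratio of the group means was -0.80 for this sum, -0.75 for the 4 surface receptors and -0.83 for the 5 endosomal receptors. The make-up of the pool, as each receptor's share of the summed CPM per kb, does not depend on how libraries are scaled. Tlr3 made up 12.5%, 13.4% and 11.5% of the pool in GFP and 19.6%, 19.0% and 17.6% in Ezh2-Y726D libraries. Tlr8 made up 5.15%, 5.5% and 4.78% in GFP and 2.08%, 2.52% and 2.03% in Ezh2-Y726D libraries. Both shifts were without overlap, in opposite directions.

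The share of Tlr2 was also higher in Ezh2-Y726D, 30.3% ± 1.78 compared with 27.4% ± 0.925 (SD, n = 3 each), while those of Tlr9 (9.66% ± 0.576 compared with 13.2% ± 0.754) and Tlr7 (9.58% ± 0.562 compared with 11.3% ± 0.949) were lower, all without overlap. The endosomal receptors without Tlr3 made up 42.4% ± 0.943 of the pool in GFP and 33.6% ± 1.11 in Ezh2-Y726D. The shares of Tlr1, Tlr4, Tlr6 and Tlr13 overlapped between the groups. For each share without overlap the exact 2-sided permutation test of 3 against 3 libraries gave p = 0.1, the smallest it can give, and shares of one pool are not independent of each other.

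**Figure D3:**
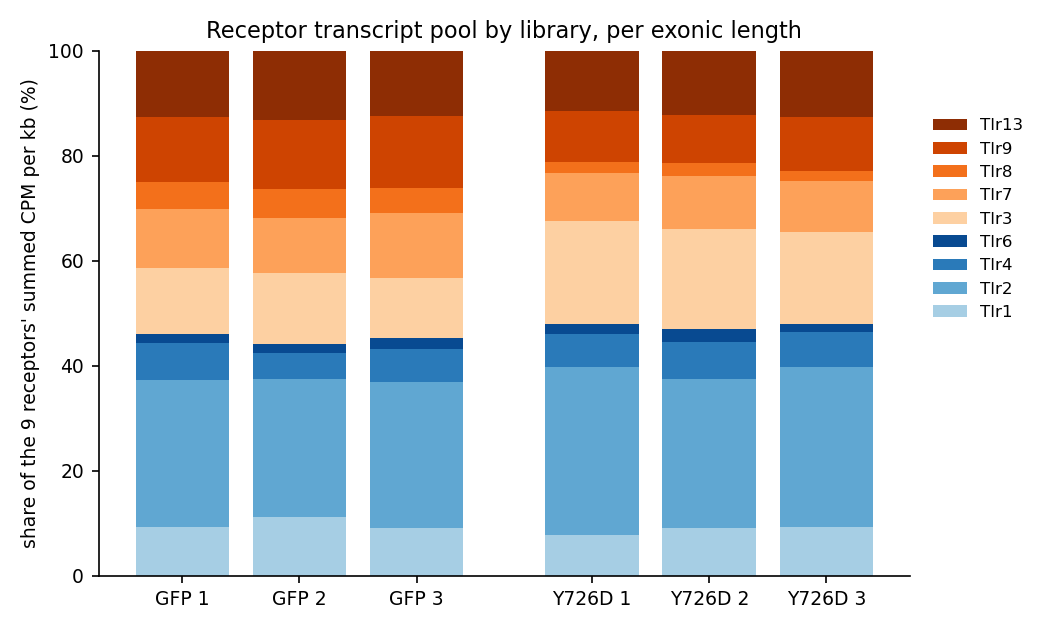
Share of each of the 9 receptors in their summed CPM per kb of exonic length, in percent, 1 bar per library, with surface receptors in blue and endosomal receptors in orange. The Tlr3 band is wider in the 3 Ezh2-Y726D libraries (17.6% to 19.6%) than in the 3 GFP libraries (11.5% to 13.4%), and the Tlr8 band is narrower.

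Ratios between genes of the family also differed between the groups. Myd88 CPM relative to the summed CPM of the 9 receptors was 0.237, 0.202 and 0.185 in GFP and 0.314, 0.307 and 0.280 in Ezh2-Y726D libraries. The ratio of Tlr3 to Tlr9 was 1.52, 1.5 and 1.24 in GFP and 2.99, 3.15 and 2.59 in Ezh2-Y726D libraries. Both ratios were higher in every Ezh2-Y726D library, by 0.54 for Myd88 and 1.03 for Tlr3 on the log2 scale. A gene without change would rise by more, as the receptor sum (-0.80) and Tlr9 (-1.20) in the denominators were lower. The ratio of Tlr1 to Tlr2 was lower in Ezh2-Y726D (0.319 ± 0.0426 compared with 0.399 ± 0.0600), whereas the ratio of Tlr6 to Tlr2 overlapped (0.0828 ± 0.0250 compared with 0.0841 ± 0.00403).

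Relative to Unc93b1, the chaperone that carries the endosomal receptors, Tlr13 kept nearly the same ratio in both groups (0.195 ± 0.0145 in GFP and 0.192 ± 0.0109 in Ezh2-Y726D), and Tlr7 overlapped (0.165 ± 0.0202 and 0.144 ± 0.00832). The ratio of Tlr8 to Unc93b1 was 0.0656 ± 0.00623 in GFP and 0.0290 ± 0.00336 in Ezh2-Y726D, and that of Tlr9 was 0.163 ± 0.0203 and 0.123 ± 0.00819. The ratio of Tlr3 was higher in Ezh2-Y726D (0.231 ± 0.0225 in GFP and 0.357 ± 0.0172 in Ezh2-Y726D), and these 3 ratios did not overlap between the groups. Unc93b1 was itself lower (-0.88), and the log2 difference of the Tlr3 ratio, 0.63, was below the 0.88 that a gene without change would show. Of 10 such ratios computed, the 7 without overlap had p = 0.1 in the exact permutation test, so none can pass 0.05 with or without adjustment.

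The marker lists of pan-myeloid cells, of monocytes and macrophages and of T cells were mostly lower in Ezh2-Y726D too. Those of homeostatic microglia and dendritic cells were mixed. Of 8 markers listed as pan-myeloid (such as Csf1r and Ptprc, the most abundant) 7 were called lower by edgeR, with a median log2 fold change of -0.78. Their sum was between 534 and 582 CPM in GFP and between 321 and 374 CPM in Ezh2-Y726D libraries. Ptprc (mean 144 CPM in GFP and 87.1 CPM in Ezh2-Y726D) and Laptm5 (115 and 70.3 CPM) are not limited to myeloid cells. The sum is therefore not a measure of myeloid cells alone. All 6 tested of 7 listed markers of monocytes and macrophages were lower (median -1.61), with a sum between 562 and 620.3 CPM in GFP and between 141 and 171 CPM in Ezh2-Y726D libraries. Cd163, the other gene of that list, was at 3 counts or fewer in every library. Of 7 markers of homeostatic microglia 2 were lower, 2 higher (P2ry12 and Sall1) and 3 not called, with a median of -0.11 and a sum between 252 and 282 CPM in GFP and between 208 and 246 CPM in Ezh2-Y726D libraries. T cell markers were lower in 5 of 5 cases, with a sum between 69.3 and 77.1 CPM in GFP and between 41.1 and 44.5 CPM in Ezh2-Y726D libraries, and 2 of 4 B cell markers were lower. Of 5 dendritic cell markers 2 were lower, 1 higher and 2 not called, with a sum between 41.2 and 44.1 CPM in GFP and between 29.5 and 34.2 CPM in Ezh2-Y726D libraries. The part of immune cells was not tested either, but each receptor could be set against marker sums within a library.

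The pan-myeloid sum itself was lower in Ezh2-Y726D by 0.66 on the log2 scale, so that the median of all genes tested stood at 0.66 relative to it. On this scale 5 receptors were lower in every Ezh2-Y726D library, as were 1.89% of all genes tested. Tlr8 was at 0.920%, 0.953% and 0.947% of the pan-myeloid sum in GFP and at 0.351%, 0.397% and 0.326% in Ezh2-Y726D libraries, a difference in mean log2 ratio of -1.40. The differences were -0.62 for Tlr9, -0.41 for Tlr7, -0.35 for Tlr1 and -0.24 for Tlr13. Tlr2 (-0.03), Tlr4 (-0.03) and Tlr6 (-0.09) overlapped between the groups on this scale. Tlr3 and Myd88 were higher relative to the pan-myeloid sum, without overlap, by 0.42 and 0.40, values below the median of all genes on this scale, on which 80.0% of all genes tested were higher without overlap.

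Relative to the sum of 7 homeostatic microglia markers, where the median of all genes stood at 0.23, 8 receptors were lower without overlap, compared with 6.19% of all genes tested (39.2% were higher without overlap), with differences from -1.83 for Tlr8 to -0.46 for Tlr2 and Tlr4. Tlr3 (-0.02) and Myd88 (-0.04) overlapped. Each difference without overlap, against either list, had p = 0.1 in the exact 2-sided permutation test of 3 against 3 libraries, the smallest possible value. Which genes overlapped thus depended on the list: Tlr2, Tlr4 and Tlr6 overlapped against the pan-myeloid list alone, and Tlr3 and Myd88 against the microglia list alone.

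**Figure D4:**
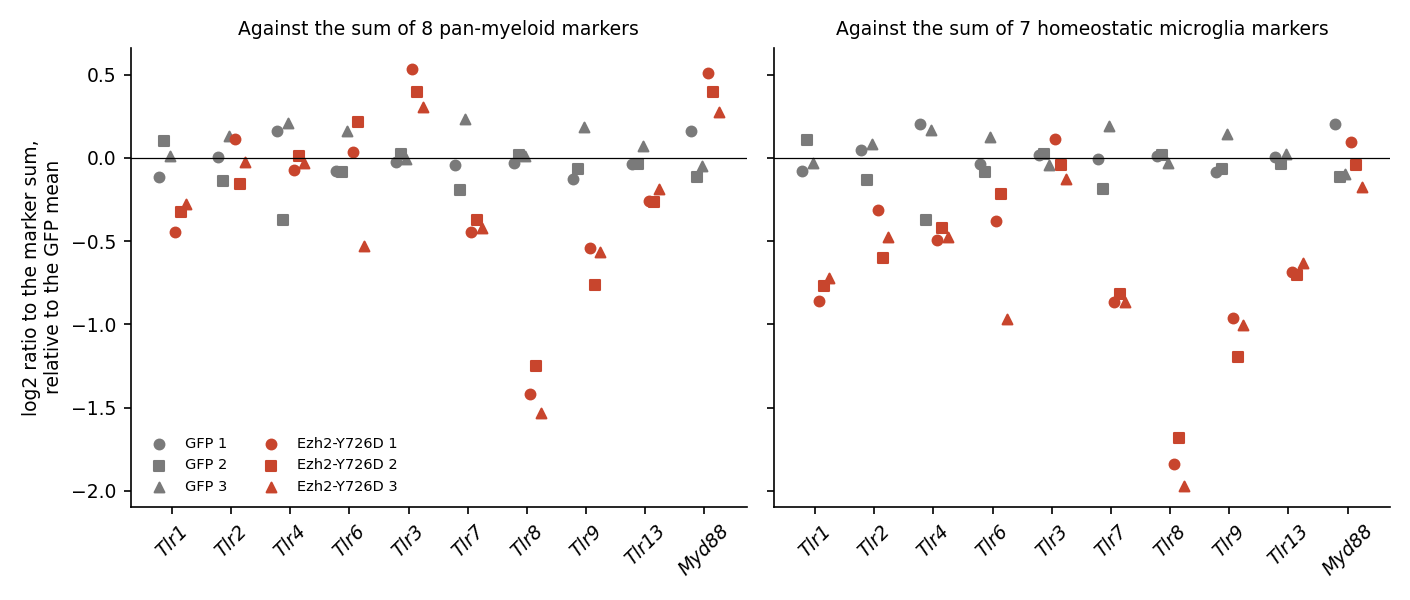
Log2 ratio of each gene's CPM to the summed CPM of 8 pan-myeloid markers (left) or 7 homeostatic microglia markers (right), relative to the mean of the 3 GFP libraries, with 1 symbol per library. Tlr8 lies lowest in both panels, whereas Tlr3 and Myd88 lie above the GFP libraries on the left, where the median of all genes tested is 0.66, and overlap with them on the right.

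Genes that act with these receptors were read from the same fit in 9 lists by role. Over the lists, 33 of the 67 tested genes (73 listed) had an adjusted P under 0.05 on the lower side and 1 on the higher side, with a median log2 fold change of -0.23, compared with 13.6% and 13.9% among all genes tested. Of the 67 tested genes 14 were DEGs on the lower side, compared with 5.50% of all genes tested. With raw library totals edgeR called 1 gene of these lists lower.

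Of the other mouse Toll-like receptors, Tlr12, a partner of Tlr11 for profilin, was lower, with 3.37, 3.35 and 3.48 CPM in GFP and 1.58, 1.13 and 2.24 CPM in Ezh2-Y726D libraries (log2 fold change -0.99, standard error 0.220, adjusted P = 0.000816, edgeR). Tlr5 and Tlr11 were under 1.1 CPM in every library and were not called. Of 10 co-receptors and chaperones 4 were lower, Lbp (-1.47), Unc93b1 (-0.88), Cd36 (-0.53) and Ly86 (-0.46). Unc93b1 was at 81.3, 76.5 and 80.4 CPM in GFP and at 41.3, 43.2 and 45.3 CPM in Ezh2-Y726D libraries. Hsp90b1, the general chaperone of these receptors and the most abundant gene of the list, was not called (-0.03, adjusted P = 0.636, edgeR), nor was Cnpy3 (-0.15, adjusted P = 0.0545).

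Of 5 adaptors other than Myd88, Pik3ap1 (-0.92), which links the receptors to PI3K, and Ticam2 (-0.80), the bridge from Tlr4 to Ticam1, were lower. Pik3ap1 was at 44.4, 47.1 and 47.9 CPM in GFP and at 23.3, 24.4 and 24.9 CPM in Ezh2-Y726D libraries. Ticam1, the adaptor of Tlr3, was at 7.10 CPM in GFP and 7.05 CPM in Ezh2-Y726D on average and was not called (-0.04, adjusted P = 0.878, edgeR). Sarm1, the abundant neuronal member of the adaptor family, was not called either (0.17, adjusted P = 0.0522).

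Of 15 kinases and ubiquitin ligases 5 were lower, Ikbke (-1.16, standard error 0.102), Irak4 (-0.43), Ripk1 (-0.31), Traf3 (-0.23) and Traf6 (-0.23), and the other 10, which include Irak1, Irak2, Map3k7 and Tbk1, were not called. Of 8 transcription factors 7 were lower. Irf7, which drives type I interferon genes, was at 75.1, 78.7 and 72.0 CPM in GFP and at 37.9, 39.3 and 35.8 CPM in Ezh2-Y726D libraries (-1.0, standard error 0.0543, adjusted P = 4.58e-14, edgeR). Irf5 was at -0.66, the 5 NF-kB subunits lay between -0.49 for Nfkb2 and -0.22 for Nfkb1, and Irf3 was not called (-0.08, adjusted P = 0.418).

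Inhibitors of the pathway were lower in 6 of 9 cases, with Il1rl1 (-1.68), the receptor of interleukin-33, and Sigirr (-0.69) farthest, and Tollip, the most abundant of them, not called (0.09, adjusted P = 0.166, edgeR). Sigirr is a case where the call and the libraries differ, since GFP replicate 3 (2.32 CPM) lay below Ezh2-Y726D replicate 3 (2.64 CPM). Of 4 genes listed as other receptors that use Myd88, Il18rap (-0.92), Il18r1 (-0.84) and Il1r1 (-0.47) were lower, and Il1rap was not called (-0.14, adjusted P = 0.252). Il1rl1, itself such a receptor, was counted with the inhibitors and not in this list. Il18r1 and Il18rap form the receptor of interleukin-18.

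Of 12 listed target genes, which include cytokines and chemokines induced by the pathway, 8 could be tested, with a median log2 fold change of -0.20. Of these, Il12b (-0.53), Cxcl10 (-0.39) and Nfkbiz (-0.19, adjusted P = 0.0457, edgeR) were lower. The groups overlapped for Nfkbiz, with 46.0, 51.2 and 52.1 CPM in GFP and 47.3, 38.0 and 42.9 CPM in Ezh2-Y726D libraries. Il1b (-0.20, adjusted P = 0.227), Tnf (-0.23, adjusted P = 0.284), Ccl3 (0.31, adjusted P = 0.0610) and Ccl4 (0.14, adjusted P = 0.565) did not pass edgeR's test, and the same held for Ptgs2. Tnf was at 6.70, 6.45 and 4.64 CPM in GFP and at 6.43, 4.80 and 4.78 CPM in Ezh2-Y726D libraries, with overlapping groups. Il6, Cxcl2, Nos2 and Ifnb1 were too low to be tested, all under 0.7 CPM in every library.

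Among endogenous proteins known to trigger the receptors, Saa3, an acute phase protein that signals through Tlr2 and Tlr4, was at 8.73, 8.0 and 7.96 CPM in GFP and at 1.58, 1.76 and 1.80 CPM in Ezh2-Y726D libraries (-2.29, standard error 0.151, adjusted P = 2.09e-12, edgeR). Biglycan (Bgn) was also lower (-0.94, standard error 0.118). Tenascin-C (Tnc), a matrix ligand of Tlr4, was the only gene of the 9 lists called higher under TMM scaling, with 77.2, 78.3 and 66.8 CPM in GFP and 91.6, 92.9 and 88.9 CPM in Ezh2-Y726D libraries (0.28, standard error 0.0503, adjusted P = 7.31e-05, edgeR). Hmgb1 was not called (-0.06), and S100a8 and S100a9 were too low to be tested.

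**Figure D5:**
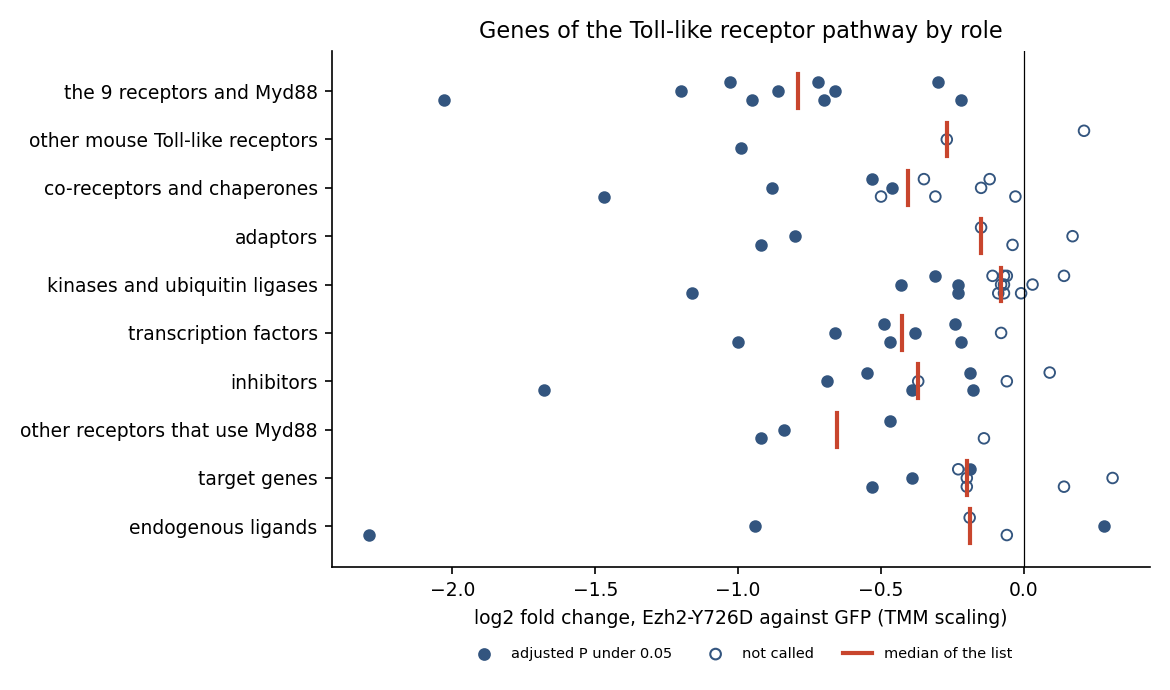
Log2 fold change, Ezh2-Y726D against GFP under TMM scaling, of each tested gene of the receptor family and of 9 lists of genes that act with it, filled where the adjusted P was under 0.05, with a red bar at the median of each list. The 10 genes of the top row have a median of -0.79, and the 67 genes of the other rows have a median of -0.23.

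Among 16035 other genes, those whose profile over the 6 libraries was most like that of Myd88 by Pearson correlation of log2(CPM + 0.5) were Rpl23a (r = 0.998), Hist1h3f (0.994), Cdkn2c (0.991), Rps7 (0.990) and Jpt2 (0.990). Their log2 fold changes ran from -0.51 for Hist1h3f to -0.18 for Rpl23a. For the sum of the 9 receptors they were Iigp1, Ctsc, Tpd52, Slfn5 and Crot, each at r = 0.999, with log2 fold changes from -1.24 for Slfn5 to -0.24 for Crot. The correlations are a description over 6 libraries that fall into 2 groups of 3, and no P was computed.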

How the data were processed

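The authors deposited raw read counts for each gene, as whole numbers, for the 6 RNA-Seq libraries (TruSeq Stranded Total RNA). The submitters' processing notes name STAR 2.7.0d and GRCm38. The counting tool, its annotation and its use of strand are not given in the sources used here. Groups and replicate numbers were taken from the sample titles, and every column of the table was used. From the counts, CPM of the TMM-scaled library and edgeR's quasi-likelihood test (edgeR 4.0.16, R 4.3.3) were computed over the 18138 genes that passed filterByExpr (10 counts, total 15), with Benjamini-Hochberg adjustment over all of them and no covariate. DEGs were called at an adjusted P under 0.05 with a change of over 1.5-fold. Standard errors are the log2 fold change over the square root of F. All 10 genes passed the filter with at least 13 counts in each library. Symbols were matched for 32325 of 32371 identifiers, and GENCODE vM21 (GRCm38) gave the coordinates. Total counts, and so the precision for rare genes, were lowest in GFP replicates 2 and 3 (5745352 and 4460732 without CT010467.1).

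The alternatives were RLE size factors, library totals with and without CT010467.1, DESeq2 1.42.0, either no filter or one of 10 counts in each library, a replicate block, each library left out, GFP replicate 1 as the only GFP library and thinned counts. Named genes were all members, at most 4 examples a list (the 2 largest changes called and the 2 most abundant), and the 5 most similar profiles among genes with a mean of at least 1 CPM. Other list and marker genes are named where they are counted or were chosen after their values were seen. The members, lists and tests were chosen with earlier results of these data known. Libraries of a group differed by more than sampling noise (chi-square per degree of freedom from 1.49 to 3.03 within groups), so no library was counted as a repeat of another. The procedure was tested on simulated counts. Some single genes and 1 list among the markers are not reported here.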

Additional observations from a re-analysis of the deposited data

How the results depend on the processing

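With raw library totals in place of TMM, the number of the 10 genes called lower by edgeR went from 10 to 0 and that of DEGs from 8 to 0, Tlr3 (0.27) and Myd88 (0.21) turned positive beside a median of all genes of 0.49, and the genes of the 9 lists went from 33 to 1 lower and from 1 to 0 higher by edgeR (2 higher at an unadjusted P under 0.05). These totals include CT010467.1. Without it all 10 genes were lower again and 8 were DEGs. DESeq2, with its own size factors, called 23 genes of the lists lower and 1 higher, and 9.52% and 10.4% of all genes. With at least 10 counts in every library 2 genes of the lists were higher. Relative to homeostatic microglia in place of pan-myeloid markers, 8 genes in place of 5 were lower without overlap. With each library left out, the number lower was 8 to 9, of DEGs 7 to 8, of list genes lower 29 to 31 and higher 1 to 2 (2 without GFP replicate 2 and without Ezh2-Y726D replicate 1), and of genes lower relative to pan-myeloid markers 5 to 6. Without a filter Tlr3 lost its call (-0.21, adjusted P = 0.0852), and with GFP replicate 1 as the only GFP library, a fit that assumes it to vary like the Ezh2-Y726D libraries, so did Tlr3 (-0.17, adjusted P = 0.231) and Tlr6 (-0.63, adjusted P = 0.153). Of 149 values of the 10 genes under the alternatives, 120 kept direction and call, 27 kept the direction without the call and 2 turned. With counts thinned to the depth of GFP replicate 3, Tlr4 and Myd88 lost their calls and Tlr6 was not tested.

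Same-numbered libraries correlated in their deviations by 0.136, 0.051 and 0.039, not all over 0.1, so they were treated as sharing only a number, although each correlated best with its own number. With the replicate block 9 of the 10 genes were lower and 7 were DEGs, with Tlr6 at -0.70 (adjusted P = 0.0553), and 35 list genes were lower and 2 higher.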
